A study of Camponotus floridanus with 64 samples.

Results

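The brain transcripts described here are those whose identifier begins with Cflo_antTRG in the tables of the carpenter ant Camponotus floridanus, read here as ant taxonomically restricted genes (TRGs). All 57 such identifiers were taken, out of 18130 identifiers, or 0.314%. They were chosen by name alone. Their names carry numbers between 19 and 654. None of the 57 matched the reference table of 14020 genes, so no gene name, function, position or sequence is given for any of them.

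A taxonomically restricted gene is one for which no relative has been recognised outside a given lineage. Such genes can arise by duplication followed by rapid change, or from sequence that did not code for a gene before. They are often short, and many are expressed weakly or in few tissues. In social insects they have drawn interest because castes develop from similar genomes, and lineage-specific genes have been among those reported to differ between castes.

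The brains fall into 5 groups. Callow majors (n = 5) and callow minors (n = 5), the large and small worker castes, were taken on day 1 of adult life and all came from colony SB2. The scouts were minor workers fed for 45 days with drug or vehicle in sugar water. One arm received trichostatin A (TSA), an inhibitor of histone deacetylases, together with C646, an inhibitor of the acetyltransferases CBP and p300 (TSA+C646, n = 6). In that arm 4 brains had 50 µM TSA with 50 µM C646, and brains 14 and 15 had 50 µM TSA with 100 µM C646. Another arm received 50 µM TSA alone (n = 10), and the vehicle arm received DMSO (n = 5), which all 3 arms carried. Labelled ages were 57 to 66 days for TSA+C646, 68 to 73 days for TSA and 78 days for DMSO. TSA+C646 brains came from colonies SB1 (3 brains), SB4 (2) and SB6 (1), and TSA brains from SB1 (4), SB2 (4) and SB4 (2). DMSO brains came from SB2 (3), SB6 (1) and SB7 (1).

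Each scout library came from 15% of a single brain and went through linear amplification, whereas the descriptions of the day 1 libraries name no amplification. Day 1 and scout brains therefore differ in age, feeding with drug or vehicle, scout role, library preparation and table, and these cannot be told apart. Colony and caste differ in part, since SB2 gave brains to both sets and all scouts were minors. In whole brains, fewer cells of a type and less RNA per cell cannot be told apart either. The series has 64 samples. The remaining 6 RNA libraries, subsamples of a single brain, stand in a table of 17064 identifiers that lists 0 TRGs, and 27 chromatin samples were not analysed here.

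The values are log2 expression values as deposited, and depth is unknown because no counts are given. An identifier is called detected in a library where its value lies above the block of tied identifiers at the bottom of that library. Its level is the log2 value after removal of a constant that each library carries, with undetected identifiers set to 0. Libraries differed widely in how much they detected. Majors 1, 2 and 3 detected 5459 to 6528 identifiers of all kinds, against 10216 and 11768 in majors 4 and 5 and 10462 to 11259 in the minors. Brain 15 of the TSA+C646 arm detected 2791, and its lowest detected level was 1.63. Brain 16 of that arm detected 12032, and TSA brain 10 detected 12328. The other scout libraries lay between 7511 and 11004. Of 16 tissue markers sought by name 3 were found, all of them chemosensory co-receptors, so the brain label could not be checked against neuronal or glial markers. IR25a, an ionotropic co-receptor, was detected in 5 of 5 majors and 5 of 5 minors, and in 6 of 6 TSA+C646, 9 of 10 TSA and 2 of 5 DMSO brains. IR8a, another, was detected in 4 of 5 majors and 5 of 5 minors, and in 5 of 6 TSA+C646, 9 of 10 TSA and 3 of 5 DMSO brains. Orco, the odorant receptor co-receptor that marks antennal neurons, was detected in 1 of 5 majors, at 2.21, and in 0 of 5 minors, and in 3 of 6 TSA+C646, 6 of 10 TSA and 2 of 5 DMSO brains at levels of at most 0.94.

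On day 1, 36 of the 57 TRGs were detected in at least 1 of 10 brains and 21 in none. In scouts, 44 were detected in at least 1 of 21 brains and 13 in none. On day 1, 63.2% of TRGs were thus detected in at least 1 brain, against 78.8% of the 16928 numbered identifiers that make up most of each table. In scouts the shares were 77.2% of TRGs and 87.2% of numbered identifiers. Detection in every brain was rare among TRGs. It was seen for antTRG543, antTRG405 and antTRG129 on day 1 (5.26% of TRGs, against 18.4% of numbered identifiers), and for antTRG249 alone in scouts (1.75%, against 9.69%). Such rarity was not particular to TRGs. Detection in all day 1 brains was at 0% for odorant receptors, gustatory receptors, tRNA and microRNA loci and 3.23% for ionotropic receptors. It was at 24.1% for small nuclear RNA and 42.1% for ribosomal RNA loci. These shares describe how widely each kind of identifier was detected and were not tested.

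Detection in every brain did not mean a high level. antTRG129 was detected in 10 of 10 day 1 brains and 12 of 21 scouts, yet its highest level was 0.91. It lay among the lowest 1% of the identifiers detected in that library in 5 of those 10 day 1 brains and in 9 of those 12 scouts. antTRG324 was among the lowest 1% in all 5 day 1 brains that detected it. Over all TRGs, 25 of 158 day 1 detections and 33 of 222 scout detections lay in that lowest 1%. Counts of detected TRGs therefore include values close to the limit of the tables.

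The number of TRGs detected per brain was 7, 9, 4, 15 and 23 in majors 1 to 5 and 20, 18, 22, 22 and 18 in minors 1 to 5. The means were 11.6 ± 7.54 in majors and 20.0 ± 2.0 in minors (SD, n = 5 each). The groups overlapped. The 3 majors with fewest TRGs were also the 3 majors with fewest identifiers of any kind, and the part of this in the caste difference was not tested. Counting TRGs at a level above 1 gave 4, 5, 1, 8 and 7 in majors and 8, 9, 8, 8 and 9 in minors.

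Scout arms overlapped throughout. TSA+C646 brains detected 3 to 22 TRGs (mean 10.7 ± 6.83, n = 6), TSA brains 6 to 25 (mean 11.8 ± 5.73, n = 10) and DMSO brains 5 to 14 (mean 8.0 ± 3.54, n = 5, all SD). The lowest and highest counts belonged to TSA+C646 brain 15 and TSA brain 10, the scout libraries with the fewest and the most identifiers detected. In all 31 brains the share of TRGs detected was below the share of numbered identifiers detected in the same brain. The ratio of the 2 shares ran from 0.184 to 0.611 on day 1 and from 0.171 to 0.620 in scouts.

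**Figure D1:**
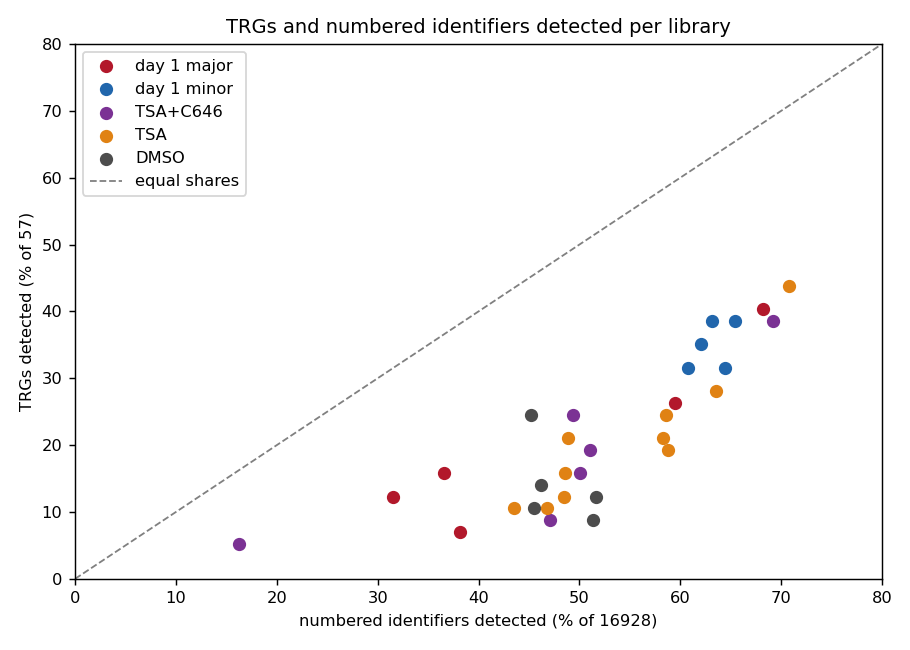
Share of the 57 TRGs detected (%, vertical axis) against the share of the 16928 numbered identifiers detected in the same library (%, horizontal axis), 1 point per brain, coloured by group, with a dashed line of equal shares. All 31 points lie under the line, from 5.26% of TRGs in TSA+C646 brain 15 to 43.9% in TSA brain 10.

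TRGs that were detected could reach high levels. On day 1, 10 of the 57 exceeded a level of 3 in at least 1 brain (17.5%, against 13.5% of numbered identifiers), and 7 exceeded 5 (12.3%, against 4.85%). Of those 10, 9 were undetected in at least 1 of the 10 brains. Among numbered identifiers above 3 on day 1, 58.0% were undetected in at least 1. In scouts, 11 TRGs exceeded 3 (19.3%, against 19.7%) and 2 exceeded 5 (3.51%, against 4.83%), and all 11 were undetected in at least 1 of the 21 brains, as were 79.2% of such numbered identifiers. Whether the deposited values were scaled to gene length is not stated, so a rank of one gene against another is a rank in these tables and not of transcript numbers.

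antTRG543 was the TRG with the highest mean level on day 1. Its levels were 6.02, 6.39, 0.38, 6.62 and 5.71 in majors 1 to 5 and 6.21, 6.83, 6.46, 5.29 and 6.53 in minors 1 to 5. It was high in 9 of 10 brains, and major 3 alone stood near the limit of detection. In the day 1 brain where it ranked highest, its deposited value was within the top 0.739% of all identifiers. Scouts differed: it was detected in 13 of 21, in 6 of those within the lowest 1%, and at a level above 1 in 3. Those 3 were TSA+C646 brain 15 at 7.48, TSA brain 1 at 1.77 and TSA brain 10 at 1.35. The 7.48 came from the scout library with the fewest identifiers detected.

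antTRG645 was also high on day 1. It stood at 0, 7.20, 7.57, 6.64 and 6.37 in majors 1 to 5 and at 5.97, 7.57, 0.30, 2.95 and 5.68 in minors 1 to 5. The castes overlapped, with 1 brain of each at or near 0. In scouts it was detected in 9 of 21, and at a level above 1 in 4: TSA+C646 brain 14 at 2.50, TSA brain 8 at 2.06 and DMSO brains 17 and 18 at 3.64 and 3.87. Both DMSO brains were from colony SB2.

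antTRG389 had levels of 0, 0, 0, 6.14 and 0.00 in majors 1 to 5, the last a detection at the bottom of its library. In minors 1 to 5 it had 6.63, 2.80, 5.45, 5.84 and 3.72. It was thus high in every minor and in major 4, where it reached the range of the upper minors. Among scouts it was detected in 7 of 21 and was either well above 1 or close to 0. TSA+C646 brains 11, 12 and 16 had 5.63, 3.79 and 3.06, TSA brains 5 and 7 had 4.28 and 3.73, and DMSO brain 20 had 4.75. None of the 7 scouts from colony SB2 had it above 1, while all day 1 brains were from SB2.

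antTRG356 had levels of 0, 0, 0, 1.86 and 1.73 in majors 1 to 5 and 2.80, 3.57, 3.23, 0.98 and 2.54 in minors 1 to 5. The majors at 0 were again the libraries with the fewest identifiers detected, and minor 4 lay below majors 4 and 5. antTRG399 stood at 0, 6.33, 0, 0 and 3.67 in majors and at 2.63, 1.84, 1.93, 1.82 and 3.15 in minors. All minors lay between 1.82 and 3.15, whereas the majors ran from undetected to the highest value of either caste.

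antTRG116 was at 5.23, 7.54, 0, 0 and 3.37 in majors 1 to 5 and at 0, 0, 0, 0 and 2.29 in minors 1 to 5. It was undetected in 2 of 5 majors and 4 of 5 minors, and in 21 of 21 scouts. antTRG57 was likewise undetected in all scouts, and was seen in 2 of 5 majors (0.41 and 2.06) and 4 of 5 minors (0.02 to 2.56). antTRG454 was at 5.03 in major 1 and at most 0.76 in the other majors and in the minors.

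**Figure D2:**
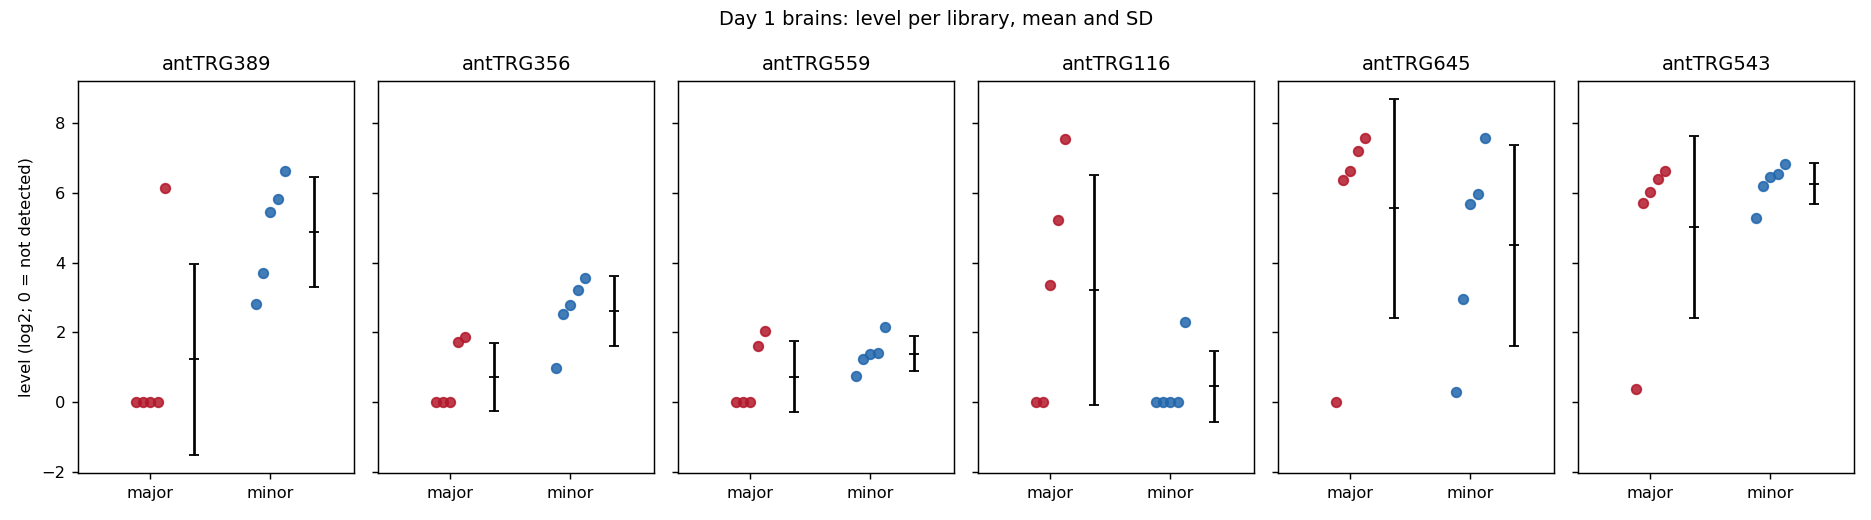
Level on a log2 scale (vertical axis) of 6 TRGs in each of 5 majors (left) and 5 minors (right) of each panel, sorted by value within a caste, with the mean and SD as black bars. Castes overlap in all 6 panels, and antTRG389 and antTRG356 have most majors at 0.

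Majors were compared with minors to ask which transcripts differ between the castes at the start of adult life. The test was limma on the deposited log2 values, with Benjamini-Hochberg adjustment over the 3694 identifiers of mean value at least 1. In deposited values undetected identifiers need not be at 0. They are spread in line order, up to 0.537 in major 1, and enter the filter, means and differences that way. With constants removed and undetected identifiers at 0, limma also called 0 TRGs, and the antTRG389 difference was -3.66. Only 7 of the 57 TRGs passed that filter, and the other 50 were not tested in this main fit. In an alternative fit with no filter all 57 entered, and 0 were called (smallest limma adjusted p = 0.154). An unadjusted p under 0.05 was met there by 18 of the 57. The share of all identifiers meeting it in that fit was not computed, so the 18 are not shown to be particular to TRGs. Of the 7, limma called 0 at an adjusted p of 0.05, in a comparison where 0.0541% of identifiers were called. At an unadjusted p under 0.05 there were 2, antTRG356 and antTRG389, both lower in majors, against 16.5% of all identifiers in both directions and 12.2% lower in majors. None of the 7 had castes without overlap, against 5.52% of identifiers. The 7 differences ran 5 lower and 2 higher in majors with a median of -0.65, where 34.8% of all identifiers were higher in majors and the median was -0.22. antTRG116, antTRG356 and antTRG559 had means under 1 in their lower caste and passed the filter through the other. The directions and median of the 7 are therefore shaped by the filter and carry no support for a shared tendency.

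The difference between majors and minors was -3.42 for antTRG389, with deposited means of 1.47 in majors and 4.89 in minors (SE 1.23, limma adjusted p = 0.243). Without majors 1 to 3 it was -1.80 (adjusted p = 0.733), and without major 4 it was -4.59 (adjusted p = 0.0662). For antTRG356 it was -1.84, with means of 0.78 in majors and 2.62 in minors (SE 0.57, adjusted p = 0.206). Without majors 1 to 3 it was -0.81 (adjusted p = 0.689). antTRG116 had the largest difference towards majors, 2.80, with means of 3.26 in majors and 0.46 in minors (SE 1.37, adjusted p = 0.338). Without major 2 that difference was 1.73, and without majors 1 to 3 it was 1.24.

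The remaining 4 tested TRGs lay further from the threshold. antTRG645 averaged 5.64 in majors and 4.49 in minors (difference 1.15, SE 1.66, adjusted p = 0.753). Leaving out 1 brain gave 0.10 without minor 3 and 2.46 without major 1. antTRG543 averaged 5.03 in majors and 6.26 in minors (difference -1.23, SE 1.10, adjusted p = 0.579), and without major 3 the difference was -0.068. antTRG559 averaged 0.74 in majors and 1.39 in minors (difference -0.65, SE 0.47, adjusted p = 0.483), and without majors 1 to 3 the sign turned to 0.46. antTRG399 averaged 2.09 in majors and 2.27 in minors (difference -0.19, SE 1.17, adjusted p = 0.957).

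Some TRGs below the filter, chosen after their values were seen, were detected only or mainly in majors or in minors. antTRG254 was detected in major 5 at 0.88 and in minors 1 to 4 at 0.83, 1.44, 2.35 and 1.30. antTRG108 was detected in 3 minors, at 0.01 to 2.93, and in no major. antTRG206 was at 3.94 in minor 1 and 2.01 in minor 5 and was undetected in the other 8 day 1 brains. Majors 1 to 3, where antTRG254, antTRG108 and antTRG206 were undetected, were the day 1 libraries with the fewest identifiers detected. antTRG574 was at 5.36 in major 1, 0.30 in major 5 and undetected in all minors. None of the 57 was detected in every brain of one caste and in none of the other, and none in every brain of a drug arm and no DMSO brain or the reverse. The shares of all identifiers with these patterns were not computed, so nothing here is shown to be particular to TRGs.

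antTRG249 was the most widely detected TRG in scouts. Its levels ran from 0.58 to 2.43 in TSA+C646 brains (median 1.17), from 0.46 to 1.94 in TSA brains (median 1.00) and from 0.75 to 1.25 in DMSO brains (median 1.10). The 2.43 came from TSA+C646 brain 15, whose lowest detected level was 1.63, and the rest of that arm reached at most 1.25. The arms overlapped over most of their range. On day 1 it was detected in 8 of 10 brains at 0.77 or less, and in minors at 0.01 to 0.08. Since the tables were normalized separately, the step between day 1 and scouts was not tested.

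antTRG559 had the highest mean level in scouts. It was detected in 3 of 6 TSA+C646 brains (2.78 to 4.26), in 7 of 10 TSA brains (1.97 to 4.63) and in 4 of 5 DMSO brains (1.79 to 3.64). It was either at 0 or at 1.79 and above in each scout. On day 1 it was detected in 7 of 10 brains at 0.76 to 2.15. By colony, it was detected in 3 of 7 scouts from SB1, 6 of 7 from SB2, 2 of 4 from SB4, 2 of 2 from SB6 and 1 of 1 from SB7.

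antTRG574 was detected in 2 of 6 TSA+C646 brains (2.43 and 3.80), in 3 of 10 TSA brains (0.29, 2.33 and 4.71) and in 4 of 5 DMSO brains (0.77, 3.02, 3.36 and 4.01). The highest single value was in TSA brain 10, the scout library with the most identifiers detected, and the arms overlapped.

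**Figure D3:**
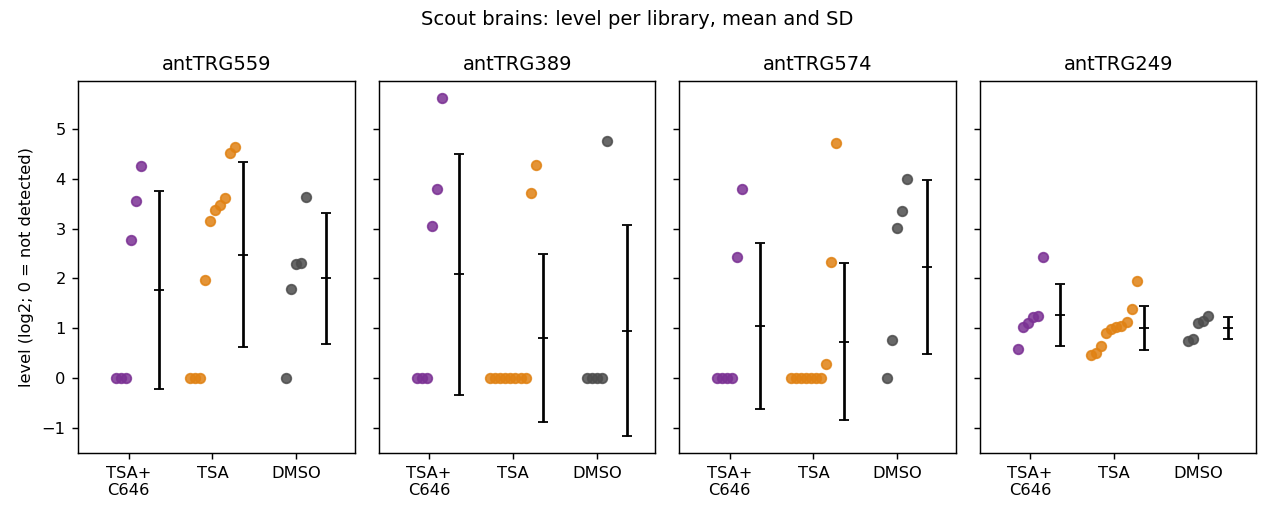
Level on a log2 scale (vertical axis) of 4 TRGs in each scout brain, with TSA+C646 (n = 6), TSA (n = 10) and DMSO (n = 5) from left to right in each panel, sorted by value within an arm, with the mean and SD as black bars. antTRG249 is detected in all 21 brains, and the other 3 are at 0 in at least 7 of 21.

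The scout arms were compared to ask how inhibiting histone deacetylation, alone or with the acetyltransferase inhibitor, altered brain transcripts. In 1 limma fit of 4899 identifiers only 4 TRGs passed the filter, antTRG574, antTRG559, antTRG249 and antTRG389. antTRG574 had a mean under 1 in TSA brains (0.89) and antTRG249 in DMSO brains (0.99), and both passed through the other arms. The filter therefore shaped which differences were tested, and their directions carry no support for a shared tendency. Undetected identifiers again enter at deposited values, up to 1.30 in TSA+C646 brain 15. For TSA against DMSO, limma called 0 of the 4 at an adjusted p of 0.05 and 0 had an unadjusted p under 0.05, where 0% and 3.27% of identifiers did. For TSA+C646 against DMSO the counts were again 0 and 0 of 4, against 0% and 3.06% of identifiers. For TSA+C646 against TSA they were 0 and 0 of 4, against 0% and 3.55%. No tested TRG had arms without overlap in any of the 3 comparisons, where 0.0816%, 0.306% and 0% of identifiers did. With no filter all 57 TRGs entered, and limma called 0 in each comparison. An unadjusted p under 0.05 was then met by 0, 1 and 3 of the 57, in the order above. The share of all identifiers meeting it without the filter was not computed. The comparisons with DMSO share the same 5 DMSO brains.

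For antTRG574 the deposited means were 1.19 in TSA+C646, 0.89 in TSA and 2.22 in DMSO brains. TSA minus DMSO was -1.32 (SE 0.88, limma adjusted p = 0.995), and within colony SB2, the only colony present in both arms, it was 0.44. TSA+C646 minus DMSO was -1.03 (SE 0.97, adjusted p = 0.999), -0.59 without DMSO brain 19 and -1.57 without DMSO brain 17. For antTRG389 the means were 2.48 in TSA+C646, 1.05 in TSA and 1.10 in DMSO brains. TSA+C646 minus TSA was 1.43 (SE 0.91, adjusted p = 0.991), 2.35 with the 50 µM C646 brains alone (adjusted p = 0.999) and 0.80 without TSA+C646 brain 11. TSA minus DMSO was -0.05 (SE 0.97, adjusted p = 0.998), and 0.85 without DMSO brain 20.

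For antTRG559 the means were 1.92 in TSA+C646, 2.63 in TSA and 2.0 in DMSO brains. TSA minus DMSO was 0.63 (SE 0.93, adjusted p = 0.995), within colony SB2 it was 2.25 (adjusted p = 0.776), and without DMSO brain 19 it was 0.13. For antTRG249 the means were 1.37 in TSA+C646, 1.15 in TSA and 0.99 in DMSO brains. TSA minus DMSO was 0.16 (SE 0.23, adjusted p = 0.995), -0.0084 once the library constants were removed and 0.069 without TSA brain 4. A p over the threshold does not show that the arms were alike. Labelled ages do not overlap between arms, so age and treatment cannot be told apart. Colonies overlap in part between arms.

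TRGs below the filter were patchy across scouts. antTRG438 stood at 4.42, 3.89 and 2.81 in TSA+C646 brains 12, 14 and 16, at 0.81 and 0.95 in TSA brains 3 and 9 and at 3.79 in DMSO brain 20. antTRG356 was at 3.53, 3.48 and 2.57 in TSA+C646 brains 13, 14 and 16, at 3.41 in TSA brain 3 and at 1.97 in DMSO brain 20. antTRG205 was at 1.80 and 3.02 in TSA+C646 brains 14 and 16, at 3.32 and 3.24 in TSA brains 4 and 5 and at 1.11 and 3.75 in DMSO brains 18 and 20. antTRG206 was at 4.50 and 1.46 in TSA+C646 brains 14 and 16, at 4.18, 3.16 and 0.55 in TSA brains 3, 4 and 10 and undetected in all DMSO brains. For these TRGs the same few brains recur, and DMSO brain 20 is the source of most high DMSO values.

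DMSO brain 20 had 11 TRGs at a level above 1, against 2 to 4 in the other DMSO brains, although it detected fewer identifiers than they did (7825, against 7839 to 8931). It was the only DMSO brain from colony SB6. TSA+C646 brain 12, the only SB6 brain of that arm, had 6 TRGs above 1, and antTRG249, antTRG389, antTRG438 and antTRG559 were above 1 in both. In the same arm brains 14 (SB4) and 16 (SB1) had 9 and 8 TRGs above 1. Brain 16 shared antTRG205, antTRG356, antTRG389, antTRG405, antTRG438 and antTRG559 above 1 with DMSO brain 20, so such sharing was not particular to SB6. Among all 21 scouts, antTRG249 was above 1 in 13, antTRG559 in 14, antTRG389 in 6 and antTRG438 in 4. antTRG447 was above 1 in TSA brains 5 and 6 alone, at 1.62 and 2.51, and these were the 2 TSA brains from SB4. It was undetected in TSA+C646 brains 14 and 15, the other SB4 scouts. antTRG405, detected in 15 of 21 scouts, was at 4.09 in TSA+C646 brain 15, at most 1.92 in TSA brains and at 2.73 in DMSO brain 20.

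**Figure D4:**
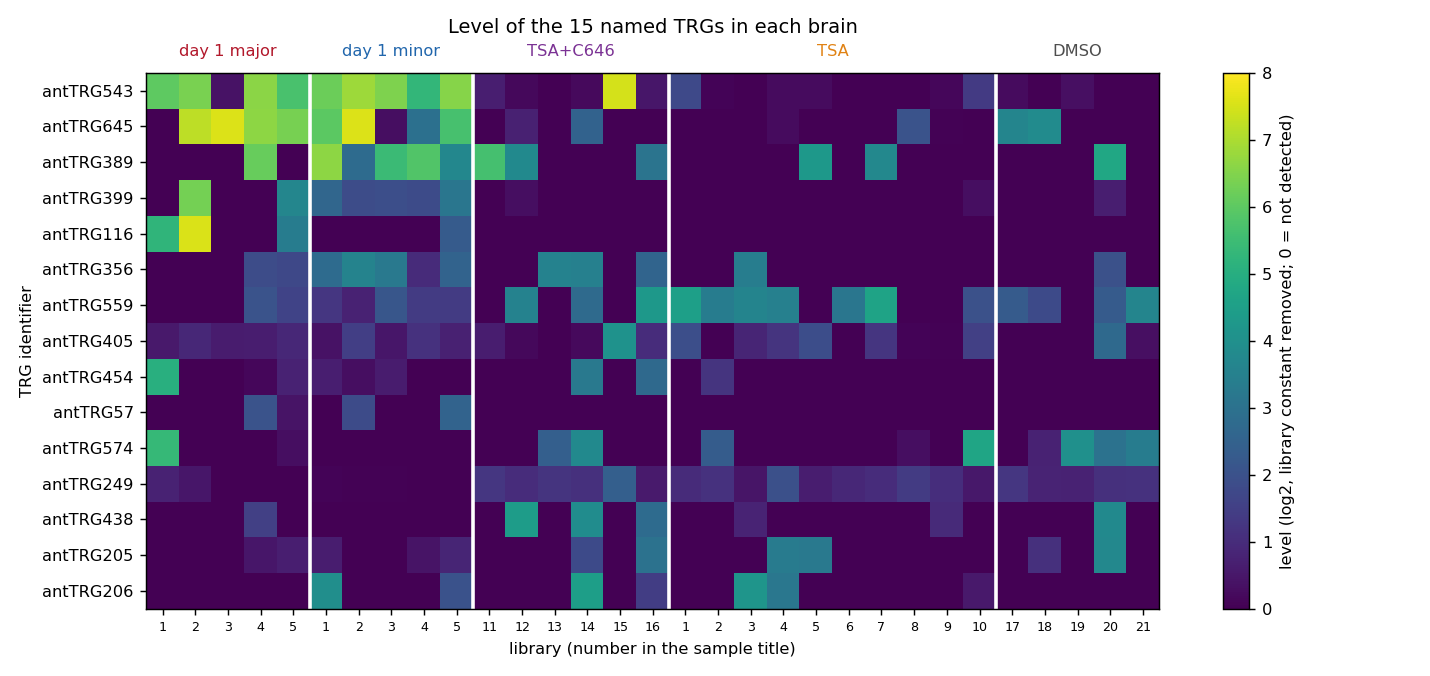
Level of the 15 named TRGs (rows) in each of the 31 brains (columns, in groups from left to right, day 1 majors, day 1 minors, TSA+C646, TSA and DMSO scouts, numbered as in the sample titles). Colour is the log2 level from 0 (dark, not detected) to 8 (yellow); antTRG543 and antTRG645 are bright in most day 1 brains, and antTRG249 is faint but present in every scout.

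The 2 tables shared most but not all of their TRGs. Of the TRGs detected in at least 1 brain, 32 were seen in both tables, which is 88.9% of the 36 seen on day 1 and 72.7% of the 44 seen in scouts. The matching overlap of numbered identifiers was not computed. On day 1 alone 4 were seen, antTRG57, antTRG116, antTRG474 and antTRG487, and 12 were seen in scouts alone. The remaining 9 were detected nowhere: antTRG139, antTRG142, antTRG263, antTRG296, antTRG332, antTRG334, antTRG429, antTRG477 and antTRG577. An undetected identifier is not shown to be absent, since Cufflinks can also list a failed estimate at 0.

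At a level above 1 in at least 1 brain the overlap was smaller. There were 19 such TRGs on day 1 and 29 in scouts, and 13 in both, which is 68.4% of the day 1 set and 44.8% of the scout set. Scouts had 21 libraries in which to exceed 1, against 10 on day 1. Of numbered identifiers 44.1% did so on day 1 and 70.1% in scouts, against 33.3% and 50.9% of TRGs. The overlap of numbered identifiers was not computed, so these sets are not shown to be particular to TRGs. The 16 above 1 in scouts and not on day 1 included antTRG205, antTRG249 and antTRG406. The 6 above 1 on day 1 and not in scouts were antTRG57, antTRG116, antTRG254, antTRG399, antTRG453 and antTRG487. Another 13 were detected somewhere but never above 1. Many of the rest rested on a single brain: 5 day 1 TRGs and 12 scout TRGs were above 1 in exactly 1 library. Examples are antTRG37 at 1.61 in TSA brain 2, antTRG138 at 2.82 in TSA+C646 brain 12 and antTRG453 at 1.72 in minor 3.

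The identifiers whose levels across brains were most like those of the leading TRGs were looked up by Pearson's r. Over the 10 day 1 brains, antTRG543 was most like Cflo_04245 (r = 0.969), Cflo_05062 (0.951) and Cflo_07949 (0.927), and 16 of 13840 identifiers had an r above 0.9. antTRG543 was low in major 3 alone (0.38), so its coefficients lean on that 1 brain. Each of its 3 closest identifiers was detected in 9 of 10 brains. antTRG389 was most like Cflo_05918 (0.966), Cflo_16020 (0.956) and Cflo_09179 (0.947), with 27 above 0.9. Like antTRG389 itself, each of these 3 was detected in 7 of 10 brains. antTRG645 was most like 3 tRNA loci, Cflo_tRNA143 (0.931), Cflo_tRNA30 (0.930) and Cflo_tRNA219 (0.919), with 4 above 0.9. Over the 21 scouts the closest were lower, at 0.713 for antTRG559 with Cflo_05076, 0.841 for antTRG389 with Cflo_03622 and 0.790 for antTRG574 with Cflo_03598, and none reached 0.9. These coefficients are the top of a search over all identifiers in libraries that share their normalization and vary in detection, and they carry no test.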

How the data were processed

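The authors deposited 1 table of scout brains and 1 of day 1 brains holding log2 expression values, with the base inferred here from the sums of the back-transformed values. The submitters' processing notes name bcl2fastq 2.0, Bowtie2 and Cufflinks 2.2.1, without settings. The build, annotation and normalization were not given in the sources used here. Poly(A) RNA libraries were strand-specific, per the labels' protocols. Depth is unknown.

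Within a table every library followed 1 shared distribution plus 1 constant, from -0.330 to 0.907 in scouts and -0.0150 to 0.0288 on day 1, with values under 0 set to 0. Tied bottom values had been spread in line order, which let detection be recovered. Levels have the constant removed. Means and tests use deposited values. A lowest detected level depends on how many identifiers a library detected.

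Group differences were tested by limma 3.58.1 (R 4.3.3) using a variance trend and Benjamini-Hochberg adjustment at 0.05, on identifiers with a mean of at least 1. The 3 scout arms shared 1 fit. The design assumed linear or log2 values, and the log2 form applied. Nothing says that replicates are more than separate brains, so p-values set a group difference against the variation between brains of a group. Among scouts that variation also holds colony and C646 dose, and on day 1 it covers colony SB2 alone.

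The 15 named TRGs are the 10 with the highest mean level in each table and, per comparison, the 3 tested with the smallest p in each direction. Others were chosen after their values were seen. The members, lists and rules were chosen with earlier results of these data known. Deviations of same-numbered major and minor brains from their caste means correlated at -0.117 to 0.166. The labels state no pairing and these correlations cannot settle it, so the main test was unpaired. Other settings tried were a minimum mean of 2, no filter, pseudocounts 0.1 and 5, constants removed, quantile normalization, array weights, colony as a random block, colony SB2 alone, 50 µM C646 alone, replicate number as a block, and libraries left out. Python 3.11.15, numpy 2.4.6, pandas 2.3.3 and matplotlib 3.10.9 were used.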

Additional observations from a re-analysis of the deposited data

Results flagged for a closer look

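Among the named TRGs and the TRG counts, 79 groups of 4 to 10 brains with at least 1 detection were looked at for a brain far from the rest of its group by Dixon's criterion, which chance meets in about 5% of groups. There were 26 such cases, and several came from the same brain. In groups where most brains are at 0, a single detection meets the criterion by construction.

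On day 1, major 1 stood apart for antTRG454 (5.03), antTRG574 (5.36) and antTRG645 (0, the lowest of its group). Major 3 was the lowest for antTRG543 (0.38). Major 4 was the highest for antTRG57 (2.06), antTRG389 (6.14) and antTRG438 (1.50), and minor 5 for antTRG116 (2.29).

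In the TSA+C646 arm, brain 15 stood highest for antTRG249 (2.43), antTRG405 (4.09) and antTRG543 (7.48), brain 14 for antTRG206 (4.50) and antTRG645 (2.50), and brain 12 for antTRG399 (0.31). No identifier detected in brain 15 had a level under 1.63. In the TSA arm, brain 10 stood highest for antTRG399 (0.30), antTRG574 (4.71) and the number of TRGs detected (25). TSA brain 2 stood highest for antTRG454 (1.20), brain 3 for antTRG356 (3.41) and brain 8 for antTRG645 (2.06). In the DMSO arm all 6 came from brain 20: antTRG356 (1.97), antTRG389 (4.75), antTRG399 (0.67), antTRG405 (2.73), antTRG438 (3.79) and the number of TRGs above 1 (11). The cause of these values was not tested.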

How the results depend on the processing

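Over the 4 comparisons 91 alternative fits called 0 TRGs, as the main fits did. The smallest adjusted p for a TRG was 0.0662, for antTRG389 in majors against minors without major 4. That count includes the replicate block for majors against minors, with 0 TRGs called. No paired analysis was possible between scout arms because they share no replicate numbers.

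Of 409 refitted TRG differences 30 changed sign, none of them past the threshold. For majors against minors, antTRG559 came to 0.10 with array weights and 0.46 without majors 1 to 3, and antTRG399 to 0.34 with a pseudocount of 5 and between -1.25 and 0.33 with 1 brain left out. For TSA against DMSO, antTRG574 came to 0.44 in colony SB2 and antTRG249 to -0.0084 with constants removed or quantile normalization. antTRG389 came to 0.13 with a pseudocount of 0.1, 0.24 with array weights, 0.16 in SB2, 0.041 without TSA brains 9 and 10 and TSA+C646 brains 15 and 16, and between -0.41 and 0.85 with 1 brain left out. For TSA+C646 against DMSO, antTRG559 came to 0.18 with a pseudocount of 5, 0.19 with 50 µM C646 alone and between -0.73 and 0.32 with 1 brain left out. For TSA+C646 against TSA, antTRG574 came to -0.058 with 50 µM C646 alone and between -0.23 and 0.81 with 1 brain left out.

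Counting only levels above 1 gave 5.00 TRGs per major brain and 8.40 per minor brain, and 5.50, 4.50 and 4.60 per TSA+C646, TSA and DMSO brain. With 1 brain left out, mean detected TRGs ran from 8.75 to 13.5 in majors, 19.5 to 20.5 in minors, 8.40 to 12.2 in TSA+C646, 10.3 to 12.4 in TSA and 6.50 to 8.75 in DMSO brains. Depth is not recorded, so an undetected TRG is not shown to be absent.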
